A study of Mus musculus with 3 samples.

Results

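The genes examined here were 10 that build the cytoskeleton and the cell contacts of a simple epithelium: the keratins Krt8, Krt18, Krt19 and Krt20, the adhesion genes Epcam and Cdh1, and the claudins Cldn3, Cldn4, Cldn7 and Cldn15. They were chosen by name from 21900 protein-coding genes. No measured value was used in the choice, but earlier results of these data were known. Every ATAC-seq peak overlapping the body of one of these genes or the 50 kb on either side of it was collected. Overlapping peaks of different libraries were joined into 1 region, which gave 66 regions of the 33564 in the genome. The windows of Krt8 and Krt18 shared 7 regions and those of Cldn3 and Cldn4 shared 5, and each shared region was counted once in totals.

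Open chromatin was profiled in epithelial cells of the small intestine of mouse embryos at E16.5, isolated with magnetic beads against EpCAM, with 20000 cells per library. The control was 1 library with the genotype Hnf4gCrispr/+, a heterozygous mutation of Hnf4g made by CRISPR, for which the labels name neither a Cre driver nor floxed alleles. The other libraries, the 2 replicates of the double knockout, called DKO1 and DKO2, had the genotype Shh-Cre, Hnf4af/f, Hnf4gCrispr/Crispr: Hnf4g was mutated on both copies, and floxed Hnf4a was exposed to a Cre driven by Shh, a gene of the embryonic gut endoderm. Hnf4a and Hnf4g encode paralogous nuclear receptors that drive enterocyte genes, and the study asked which accessible chromatin depends on them. The labels do not say how many embryos went into a library, so the spread between the DKO libraries may be technical.

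Keratins form intermediate filaments from pairs of a type II and a type I chain, and Krt8 (type II) with Krt18, Krt19 and Krt20 (type I) make up the filaments of simple gut epithelium. E-cadherin, the product of Cdh1, holds neighbouring cells together at adherens junctions. Claudins form the strands of tight junctions and set which ions pass between cells, and EpCAM is an adhesion protein that binds claudin 7.

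The control list held 16977 peaks, DKO1 held 18268 and DKO2 held 26648. All were windows of 601 bp with a score whose meaning is not stated, so each peak is given by its percentile rank among the scores of its own list (100 is the highest). A peak that is missing from a list was not called, which does not show that the chromatin was closed, and sequencing depth is unknown. Hnf4a had a start-site peak in each library, at ranks of 76.7 in the control, 34.0 in DKO1 and 63.0 in DKO2, which does not check the deletion. Of 7 epithelial marker genes, which include 5 of those described here, 3 had a start-site peak (within 1 kb) in the control, 5 in DKO1 and 5 in DKO2, against 44.6%, 51.3% and 53.1% of all placed start sites. Of the listed markers of mesenchyme that could be placed, 0 of 4 had one in the control, 2 in DKO1 and 1 in DKO2, with Vim called in both DKO libraries at ranks of 9.70 and 8.99. The 1 placed nerve marker, Elavl4, was called in both DKO libraries and not in the control, at ranks of 38.4 and 69.8. None of the placed immune (1), endothelial (1) and erythroid (3) markers had one in any library. The part that cells other than epithelium had in the results below was not tested.

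Start sites gave the plainest contrast between the genes. A peak within 1 kb of the start site was called for 4 of the 10 genes in the control, 7 in DKO1 and 6 in DKO2. Over all 14184 protein-coding genes with a placed start site, the shares were 44.6%, 51.3% and 53.1%, so a lower count in the control was general and the 3 counts are not a result about these genes. Krt19, Epcam, Cdh1 and Cldn3 had one in all 3 libraries, Cldn4 and Cldn7 in both DKO libraries and not in the control, and Krt8 in DKO1 alone. Krt18, Krt20 and Cldn15 had none in any library. Among all placed start sites, 40.5% had a peak in all 3 libraries, 7.64% in both DKO libraries and not in the control, and 1.54% in the control and neither DKO library. The last of these patterns was seen at 0 of the 10 genes. With 1 control library and 2 DKO libraries no test of the genotype was made, and the difference between the DKO libraries is given as the only measure of replicate spread.

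**Figure D1:**
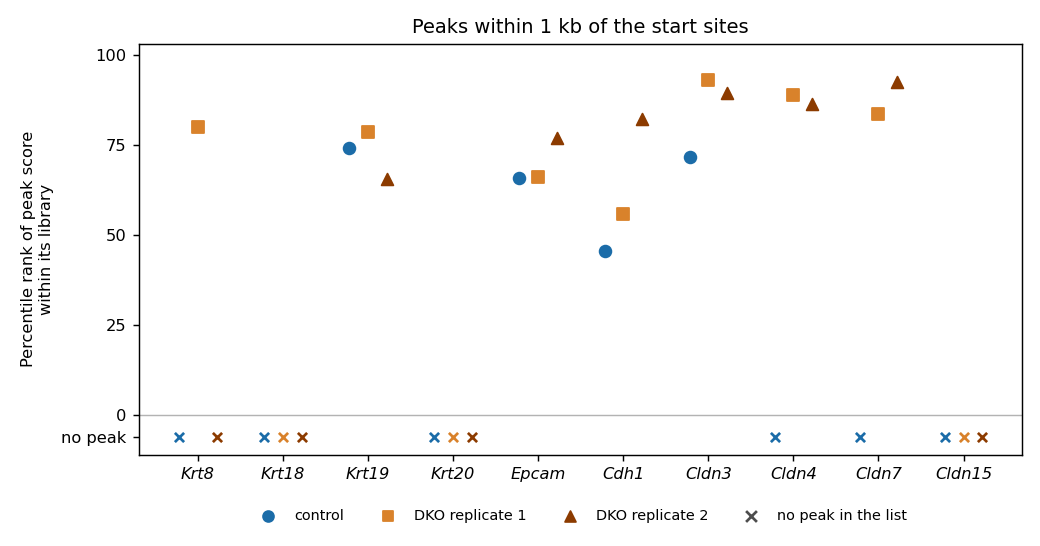
Percentile rank of the peak within 1 kb of each start site (vertical axis, rank within its own library) for the 10 genes, with 1 point per library and a cross where no peak was listed. Cldn4 and Cldn7 have DKO points above a rank of 83 and no control point, and at Cldn3 the control point, at 71.6, lies below both DKO points.

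Shown here are the promoters of Cldn4 and Cldn7, whose start sites were called in both DKO libraries and not in the control. Those of Cldn3 and Epcam, whose start sites had a peak in every library, are shown beside them. The sequences are the 250 bases before the start site, 5′ to 3′ on the strand of the gene, from RefSeq in the build GRCm38.p6, which is not the build of the peaks. Capitals mark matches to any of 9 motifs that were searched on both strands. For Cldn7 the second of its 2 listed start sites is used, the one at the centre of the peaks.
Cldn3, chr5:134985964-134986213, plus strand: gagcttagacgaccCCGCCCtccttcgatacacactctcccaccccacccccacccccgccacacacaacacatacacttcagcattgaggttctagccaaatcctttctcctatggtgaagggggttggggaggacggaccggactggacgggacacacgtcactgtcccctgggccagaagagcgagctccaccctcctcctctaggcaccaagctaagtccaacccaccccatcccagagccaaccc
Cldn4, chr5:134946935-134947184, minus strand: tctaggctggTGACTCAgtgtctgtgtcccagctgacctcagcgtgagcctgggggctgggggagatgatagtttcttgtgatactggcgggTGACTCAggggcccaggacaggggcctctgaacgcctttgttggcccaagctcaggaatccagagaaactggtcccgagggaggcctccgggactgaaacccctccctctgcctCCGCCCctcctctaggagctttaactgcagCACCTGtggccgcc
Cldn7, chr11:69965171-69965420, plus strand: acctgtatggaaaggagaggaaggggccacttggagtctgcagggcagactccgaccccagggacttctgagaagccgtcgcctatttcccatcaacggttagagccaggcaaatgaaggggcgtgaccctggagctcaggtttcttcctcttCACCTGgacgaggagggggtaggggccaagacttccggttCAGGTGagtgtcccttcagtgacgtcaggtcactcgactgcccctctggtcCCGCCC
Epcam, chr17:87635729-87635978, plus strand: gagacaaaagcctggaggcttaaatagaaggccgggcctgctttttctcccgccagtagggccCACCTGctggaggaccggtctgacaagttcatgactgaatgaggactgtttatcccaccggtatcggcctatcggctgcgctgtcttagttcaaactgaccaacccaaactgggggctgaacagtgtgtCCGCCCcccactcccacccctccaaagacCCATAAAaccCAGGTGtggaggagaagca

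Of the 10 genes, 8 were found in the promoter table, and the letters searched were CAAAGNNCA for HNF4, GGGCGG for the GC box, CNATAAA for CDX, AGATAA for GATA, AACCNGTT for GRHL, CAGGTG for the E-box, TGANTCA for AP-1, TATAAA for the TATA box and CCAAT for the CCAAT box. A CDX match can hold a TATA box match, as it did at Krt20. A gene was counted if any of its promoter entries held a match, whereas the background shares are per entry. Cldn7 has 2 entries, and the one not printed above held no match. The GC box letters occurred at 5 of the 8 genes (Epcam and all 4 claudins), against 32.7% of 32851 promoters in the table. E-box letters occurred at 5 of the 8 (Krt8, Krt18, Epcam, Cldn4 and Cldn7), against 17.2% of all promoters. At Cldn4 they lay at positions -14 to -9 from the start site, with AP-1 letters at -240 to -234 and again at -158 to -152. At Cldn7 they lay at -97 to -92 and at -57 to -52. AP-1 letters were also found at Cldn15, so 2 of the 8 genes held them, against 6.75% of all promoters. The HNF4 letters were found at 0 of the 8 genes, against 5.49% of all promoters, the GRHL letters at 0 against 1.79%, and the CCAAT letters at 0 against 33.8%. CDX letters were found at 2 genes (Krt20 and Epcam, background 9.81%), GATA letters at 2 (Krt8 and Krt20, background 9.99%) and TATA letters at Krt20 alone (background 12.4%).

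Cldn4 encodes a claudin that tightens the barrier to sodium, and its start site lay inside the region chr5:135422646-135423266 (build mm9, as for all peaks). The peak had a score of 47 (rank 88.9) in DKO1 and 41 (rank 86.3) in DKO2, and the control list had no peak there. The nearest control peak to the start site was 12202 bp away, with a score of 18 (rank 34.8). Both DKO ranks lay in the upper part of their lists and differed from each other by 2.60 points. At start sites of this kind across the genome, the median of the lower DKO rank was 34.0.

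Cldn7 encodes the claudin that binds EpCAM and lies along the sides of gut epithelial cells. The region at its start site, chr11:69778614-69779219, had a score of 41 (rank 83.6) in DKO1 and 50 (rank 92.5) in DKO2. No control peak was listed within 14864 bp of the start site. The 250 bases printed above for Cldn4 and Cldn7 lay within these regions as placed. With all lists trimmed to 16977 top-scoring peaks, Cldn4 kept ranks of 88.1 and 78.5 and Cldn7 ranks of 82.4 and 88.3 in the DKO libraries. The control list already had that length, so its missing peaks could not change.

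Cldn3, the tight junction gene that neighbours Cldn4, had a start-site peak in each library. Its score was 27 (rank 71.6) in the control, 54 (rank 93.1) in DKO1 and 45 (rank 89.5) in DKO2. The control thus ranked below both DKO libraries, by -19.7 points against their mean, where the DKO libraries differed by 3.53 points. A lower control rank was general at start sites called in all libraries, where the median ranks were 65.7 in the control, 73.9 in DKO1 and 76.9 in DKO2. Trimming the lists to equal length left ranks of 71.6, 92.5 and 83.6.

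Between Cldn3 and Cldn4 lay 2 further regions that were called in all libraries. The one closer to Cldn4, chr5:135434875-135435601, 12439 bp upstream of the Cldn4 start site, had ranks of 34.8 in the control, 68.1 in DKO1 and 67.7 in DKO2. Its control rank was -33.1 points from the DKO mean, and the DKO ranks differed by 0.47 points. It was the 1 region of the 19 called in all libraries in these windows whose control rank was at least 25 points below both DKO ranks, a pattern found at 12.3% of such regions genome-wide. The second, 19675 bp upstream of Cldn4, had ranks of 80.7, 90.9 and 87.2. In the other direction, a region 15244 bp downstream of the Cldn3 start site ranked higher in the control, at 65.7 against 52.6 and 51.4. The strongest region of the 2 windows was at the start site of the neighbouring gene Abhd11, at ranks of 98.2, 98.4 and 99.6. The claudin windows therefore held regions whose control rank was lower, higher and nearly equal.

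The window of Cldn7 contained 11 other protein-coding genes, and its other regions mostly lay at their start sites. The region shared by Ctdnep1 and Elp5, 15250 bp downstream of the Cldn7 start site, ranked 65.7 in the control and 90.3 and 90.2 in the DKO libraries. The Phf23 start site ranked 74.2, 85.7 and 90.2. A region at Eif5a, which encodes a translation factor, ranked 96.3, 97.8 and 97.4. A higher DKO rank was thus also found at neighbours of Cldn7. One region was called in the control alone, at Ybx2 (rank 22.8), and one more in both DKO libraries alone, at Gabarap (ranks 34.0 and 47.9).

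Cldn15 encodes a claudin that forms sodium-permeable pores in the small intestine, and no library had a peak within 1 kb of its start site. The nearest regions lay upstream, near the neighbouring gene Fis1. One, chr5:137437779-137438409, 5643 bp upstream, was called in both DKO libraries alone at ranks of 38.4 and 51.4. The other, 14678 bp upstream, was called in all libraries at ranks of 58.8 in the control, 78.6 in DKO1 and 73.6 in DKO2. Another region called in both DKO libraries alone, 48854 bp upstream, had ranks of 24.7 and 25.4, and one called in the control alone, 43690 bp upstream, had a rank of 17.0. A further region at Plod3 and Znhit1 was called in the control (rank 50.4) and DKO2 (rank 57.7).

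**Figure D2:**
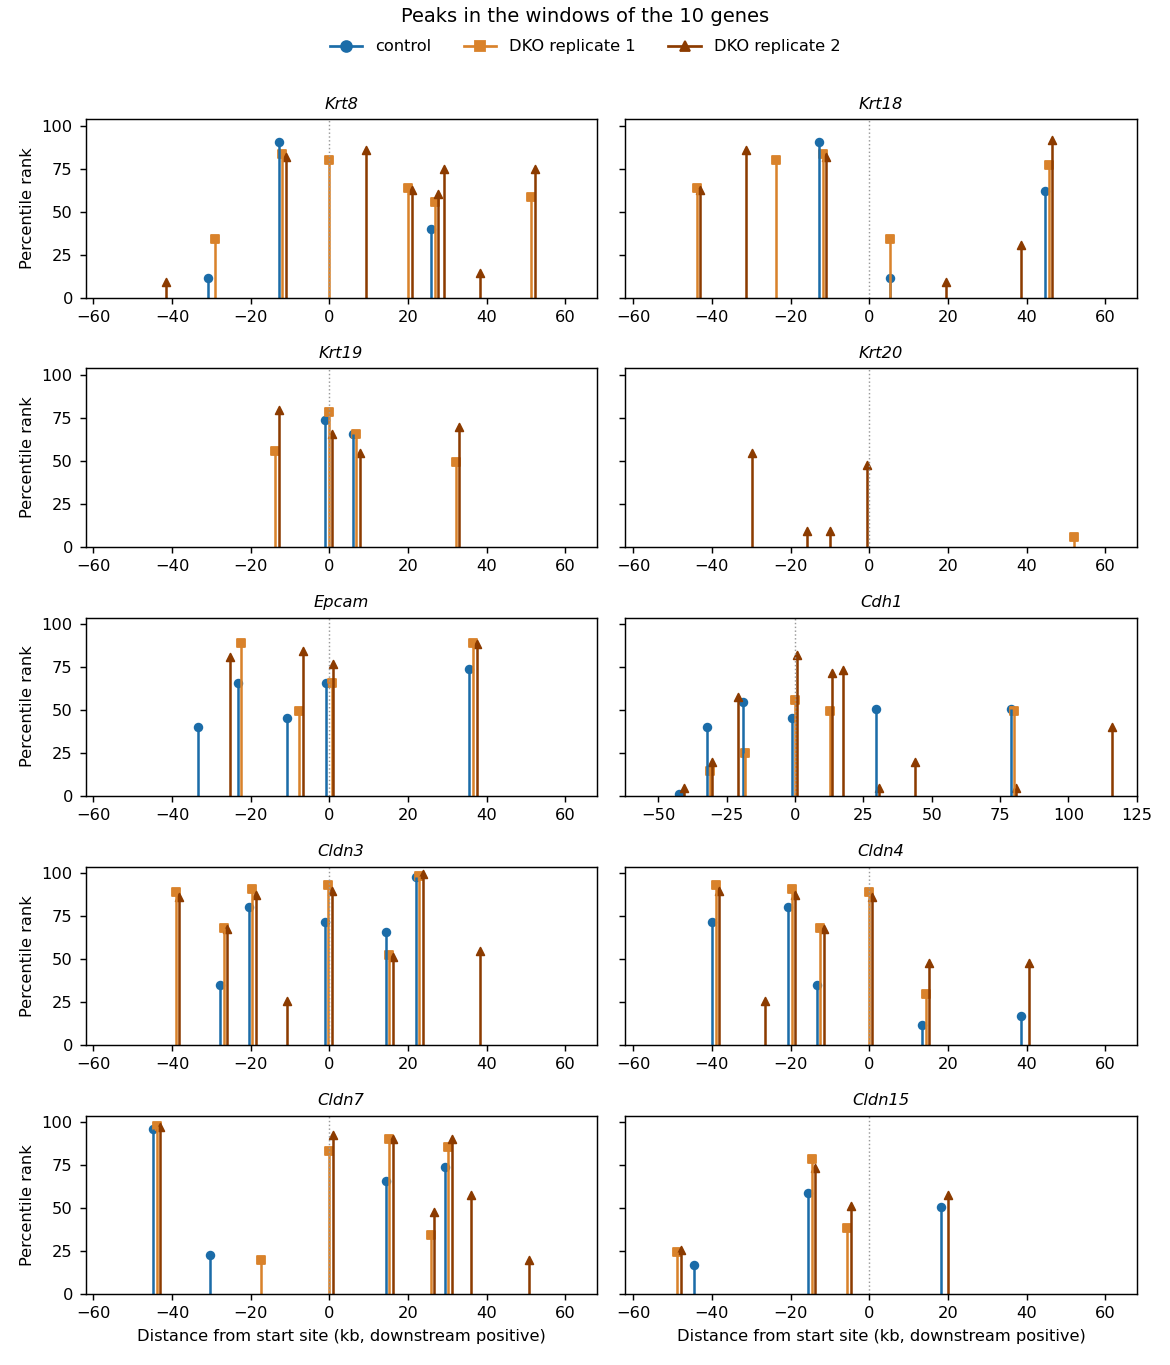
Peaks in the window of each of the 10 genes, by distance of the region's centre from the start site (horizontal axis, kb, downstream positive) and percentile rank within the library (vertical axis), with the 3 libraries drawn side by side. At the Cldn4 and Cldn7 start sites only DKO peaks stand, and the Krt20 window holds no control peak.

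Epcam, whose protein was the handle for isolating the cells, had a start-site peak in each library. The control peak had a score of 25 (rank 65.7), that of DKO1 a score of 30 (rank 66.0) and that of DKO2 a score of 33 (rank 76.9). The peaks of the control and DKO2 covered the start site in the region chr17:88034920-88035600. That of DKO1 lay just downstream, at chr17:88035767-88036367, and so formed a separate region 167 bp away. The ranks of the control and DKO1 were nearly equal, so the control did not stand apart from the DKO libraries.

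Further regions of the Epcam window went in both directions. A region called in all libraries 36495 bp downstream of the start site had ranks of 74.2 in the control, 88.9 in DKO1 and 88.8 in DKO2. The control alone had peaks 9878 bp upstream (rank 45.5) and 32531 bp upstream (rank 40.3). Both DKO libraries and not the control had a peak 7610 bp upstream, with ranks of 49.4 and 84.3 that were far from each other. The first of these control peaks lay 1667 bp from it. The region 22389 bp upstream was called in the control (rank 65.7) and DKO1 (rank 88.9) and missing from DKO2.

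Cdh1 had a start-site peak in each library, in the region chr8:109126816-109127536. Its score was 20 (rank 45.5) in the control, 26 (rank 55.7) in DKO1 and 37 (rank 82.3) in DKO2. The control was lowest, by -23.5 points against the DKO mean, but the DKO libraries differed from each other by -26.5 points (DKO1 minus DKO2), so the difference was within the spread of the replicates. Inside the gene body, a region 12789 bp downstream of the start site was called in both DKO libraries alone, at ranks of 49.4 and 71.8. Another, 30356 bp downstream, was called in the control alone at a rank of 50.4, and a peak of DKO2 (rank 4.72) ended 26 bp from it. The 4 regions of the upstream flank were mixed. A region 31207 bp upstream had ranks of 40.3 in the control, 14.4 in DKO1 and 19.8 in DKO2, a control excess of 23.1 points over the DKO mean. A region 18091 bp upstream was called in the control (rank 54.8) and DKO1 (rank 24.7) only. A region 21766 bp upstream was called in DKO2 alone (rank 57.7), and one 41630 bp upstream was called near the bottom of the lists of the control (rank 0.94) and DKO2 (rank 4.72). The start site of the following gene, Tango6, had ranks of 50.4 in the control, 49.4 in DKO1 and 4.72 in DKO2. The flanks of Cdh1 thus held regions that ranked higher in the control and others that did not.

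Among the keratins, Krt19 was the only one of the 4 with a start-site peak in every library. In the region chr11:100007073-100007844 its score was 28 (rank 74.2) in the control, 37 (rank 78.6) in DKO1 and 27 (rank 65.4) in DKO2. The control lay between the DKO libraries, which differed by 13.2 points. A region 6822 bp downstream, just past the end of the gene, was also called in all libraries, at ranks of 65.7, 66.0 and 54.7. Both other regions of the Krt19 window were called in both DKO libraries and not in the control. One lay 13751 bp upstream (ranks 55.7 and 79.8) and the other 32070 bp downstream (ranks 49.4 and 69.8), and the nearest control peaks were 12829 and 24457 bp from them.

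Krt8 and Krt18 encode the partner chains of the same filament and lie side by side on chromosome 15, transcribed away from each other. The Krt8 start site had a peak in DKO1 alone (chr15:101834548-101835148), with a score of 38 (rank 80.0), and DKO2 had its nearest peak just past the other end of the gene, 8330 bp downstream, with a score of 41 (rank 86.3). Neither was found in the other DKO library or in the control. Krt18 had no start-site peak in any library. The region between the genes, chr15:101846378-101847116, lay 12012 bp upstream of Krt8 and 11862 bp upstream of Krt18 and was called in all libraries. It had ranks of 91.1 in the control, 83.6 in DKO1 and 82.3 in DKO2, so the control was 8.12 points above the DKO mean and the DKO libraries differed by 1.37 points. On the far side of Krt8, a region 26785 bp downstream of its start site was called in all libraries at ranks of 40.3, 55.7 and 60.5, lowest in the control. A region 19992 bp downstream was called in both DKO libraries alone, at ranks of 63.7 and 63.0, and so was one at the start site of Krt78, 51347 bp downstream, at ranks of 58.6 and 75.3. The control-only region 6141 bp downstream of the Krt18 start site had a rank of 11.4, and a peak of DKO1 lay 319 bp from it.

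Krt20, the keratin of differentiated gut cells, had a window with few peaks. The control had 0 peaks there, DKO1 had 1, at a rank of 5.61, and DKO2 had 4. The peak of DKO2 nearest to the start site was centred 1478 bp upstream, with a score of 21 (rank 47.9). Its highest-ranked peak, also of DKO2, lay 30698 bp upstream at a rank of 54.7. No region of the window was called in both DKO libraries, so nothing in it repeated between replicates. With the narrowest span used for placing genes, this window and that of Krt19 would lie elsewhere, as described below.

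Taking the windows of all 10 genes, the control had 31 peaks, DKO1 had 37 and DKO2 had 53. Per 1000 peaks of each list these were 1.83, 2.03 and 1.99, slightly fewer in the control. The same measure over the windows of all placed protein-coding genes was 702 in the control, 713 in DKO1 and 651 in DKO2. These small differences are not read as a result about the 10 genes. Of the 66 regions, 19 were called in all 3 libraries, 11 in both DKO libraries and not in the control, and 6 in the control alone. DKO2 was the only library with a peak at 19 regions, and DKO1 at 5. The control shared 4 regions with DKO2 alone and 2 with DKO1 alone. Over all regions of the genome, 30.9% were called in all libraries, 16.0% in both DKO libraries alone and 13.0% in the control alone. Over the windows of all placed protein-coding genes these shares were 36.0%, 15.7% and 12.1%. The 10 genes had shares of 28.8%, 16.7% and 9.09%, close to this background, and the mix of classes is therefore not a result about these genes.

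**Figure D3:**
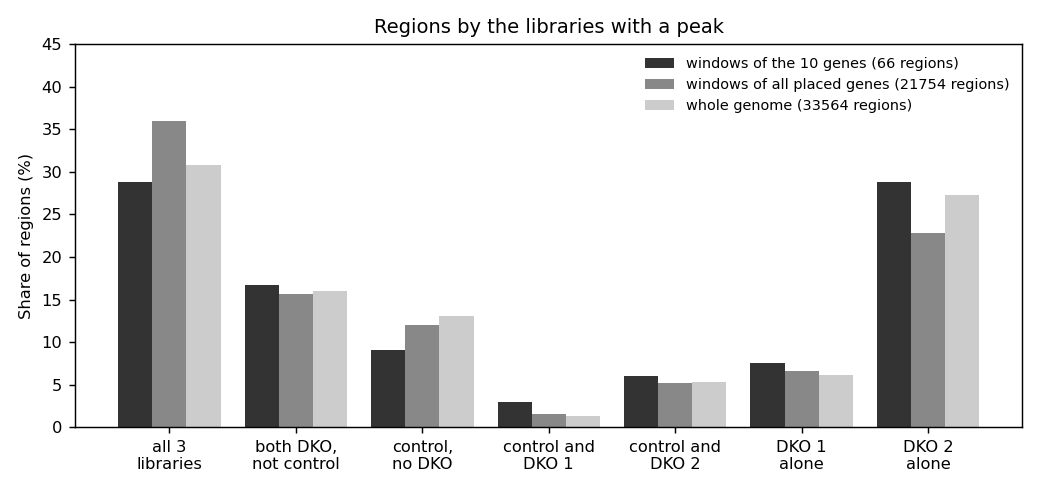
Share of regions (vertical axis, %) in each of the 7 possible combinations of libraries with a peak (horizontal axis), for the 66 regions of the 10 genes, for the windows of all placed protein-coding genes and for the whole genome. The bars of the 10 genes follow the other 2 sets, with 16.7% against 15.7% and 16.0% for regions called in both DKO libraries alone.

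The regions called in both DKO libraries alone differed in strength. The lower of their DKO ranks had a median of 49.4 over the 11 regions, against 29.5 over the 5369 such regions of the genome. The start sites of Cldn4 and Cldn7 were the 2 of the 11 in which both ranks were above 75, as in 306 of the 5369. The 6 control-only regions ranked between 11.4 and 50.4, so none was among the stronger peaks of the control. The 19 regions of DKO2 alone ranked from 4.72 to 86.3 with a median of 40.2.

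Among the 19 regions that every library called, the control ranked below both DKO libraries at 13, above both at 4 and between them at 2. Genome-wide, 51.1% of such regions had the control below both. The median of the control rank minus the DKO mean was -13.8 points over the 19 regions, against -5.05 points over all such regions. The DKO libraries differed at these 19 regions by a median of 4.55 points in either direction, against 10.3 points over all such regions of the genome. The replicate spread was thus smaller here than is usual, and the control difference looks larger beside it. With lists of equal length, the medians were -9.01 points here and -0.28 points over all regions. The control was then below both at 9 of 17 regions. The genome-wide share was not computed for lists of equal length, and the 51.1% above is not its background. Of the 19, the regions at the start sites of Cldn3 and Cdh1 and the 2 regions between Cldn3 and Cldn4 were among those with the control below both, and the region between Krt8 and Krt18 was among those with it above both.

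**Figure D4:**
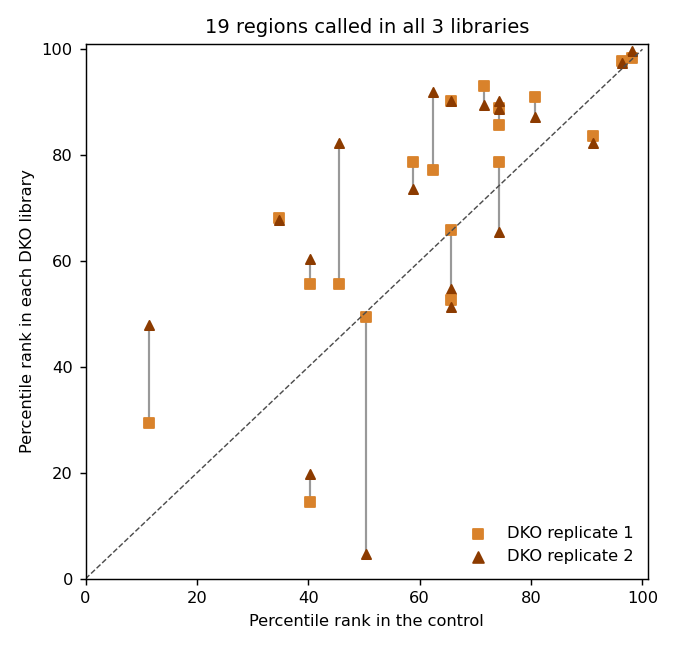
Percentile rank in the control (horizontal axis) against the rank in each DKO library (vertical axis) for the 19 regions called in all 3 libraries, with a grey line joining the DKO libraries of a region and a dashed line of equal rank. Both DKO points lie above the dashed line at 13 regions and below it at 4.

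Other genes of the same structures were taken from a list of 59, of which 32 could be placed with a start site. Of the 32, 17 had a start-site peak in the control, 18 in DKO1 and 17 in DKO2, and 16 had one in all libraries. Pooled, these counts lay near the shares of all placed start sites given above (44.6%, 51.3% and 53.1% by library, 40.5% in all 3). The list was mixed, however. The 10 placed keratin genes of other epithelia had no such peak, and the remaining genes, taken without them, had larger shares. All 5 placed adherens junction genes had one in all libraries, among them Vcl, which links cadherin complexes to actin, at ranks of 96.6, 98.9 and 98.5. Nectin2, which encodes a nectin, had ranks of 96.3, 97.9 and 98.0, and Jup, which encodes plakoglobin, had ranks of 91.1, 96.6 and 96.6. Both placed desmosome genes, Dsp and Pkp4, also had a peak in all libraries. Of 13 placed tight junction genes, 8 had a peak in all libraries, including the polarity gene Pard6b at ranks of 89.2, 96.4 and 98.1. The 3 with none were Cldn2, Cldn5 and Cldn6. Cgn, which encodes the junction protein cingulin, was called in both DKO libraries and not in the control, at ranks of 49.4 and 57.7, and the nearest control peak lay 2412 bp from its start site. Crb3, a gene of apical polarity, was called in the control alone at a rank of 82.5, with DKO peaks 1529 and 1527 bp from its start site, past the 1 kb limit. None of the 10 placed keratin genes of other epithelia, Krt5 and Krt14 of stratified epithelium among them, had a start-site peak in any library. Over all placed start sites, 42.2% had none, and neither did Krt18 and Krt20 above. Of the genes for inhibitors of the membrane proteases that can cleave EpCAM, Spint2 was called in all libraries and Spint1 in DKO1 alone. The pattern of Cldn4 and Cldn7 was thus seen at 1 of the 32 genes (3.12%), against 7.64% of all placed start sites.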

How the data were processed

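ATAC-seq was deposited as 1 peak list per library, in which the authors give each peak a position and a score. Per the submitters' processing notes, Bowtie2 2.2.6, MACS 1.4.1 and the build mm9 were used; the thresholds and the meaning of the score are not given in the sources used here. Single-end reads were 75 bp long, per the labels' protocols.

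The 10 genes and the gene lists were chosen with earlier results of these data known. Gene coordinates were at hand only for GRCm38. Each gene was shifted by the offset within 8 Mb that put most peaks on start sites over the surrounding 5 Mb, within bins of 300 bp. The chosen offsets of the 10 genes had 31 to 104 peak and start-site pairs, and the next best had 17 to 53. A span of 2 Mb moved them by at most 70 bp. A span of 1 Mb moved 8 of them by at most 125 bp, so distances are approximate. It moved those of Krt19 and Krt20 by about 2 Mb, which would put both windows at another locus. The regions given for these 2 genes therefore rest on the wider spans. Epcam (31 pairs against 18) and Cldn15 (79 against 53) had the smallest margins. Both fell short of the margin of 2 times that was asked of other genes, but all 10 genes were kept. For other genes, spans of 5, 2 and 1 Mb were tried until 1 offset had at least 10 pairs and at least 2 times those of the next. With the 10 genes included, 17065 genes were placed. Start sites came from the RefSeq promoter table, and those of Cdh1 and Krt19 were taken as the 5′ ends of their gene bodies, with the strand from general knowledge.

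Peaks overlapping by at least 1 bp were merged into regions. Ties in score shared their mean rank, and a region took its highest rank in each library. All 10 genes are described, with their start-site regions, the regions called on one side only, the strongest regions and those whose ranks differed most. Other genes are named where the start-site peak was on one side only, with the 4 of highest rank. No test was made of 1 control library against 2. The procedures were checked on simulated data. Python 3.11.15, pandas 2.3.3 and scipy 1.17.1 were used. Alternatives were lists of equal length, a minimum score, other windows, narrower peaks, other distances to the start site, and leaving out each DKO library.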

Additional observations from a re-analysis of the deposited data

How the results depend on the processing

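Of 57 alternative values computed for the counts and rank differences above, 50 stayed close to the reported value. Close meant within 1.5 times a count, or within 10.1 points of rank (1 SD of a DKO rank at these regions). The rank differences kept their sign. A count has no sign to change, and the order of counts between libraries was not checked. Cldn4 and Cldn7 were the 2 start sites called in both DKO libraries and not in the control under a narrower distance of 250 bp, under a wider one and with lists of equal length. These alternatives could not have removed either gene. Their DKO peaks covered the start sites at high ranks, and the nearest control peaks were 12202 and 14864 bp away. A minimum score of 21 (the control median) gave 3 such start sites, adding Cdh1, whose control score is 20. Scores have no stated common scale, and the medians were 24 in DKO1 and 22 in DKO2, so this cut fell hardest on the control. That minimum left 19 control peaks in the windows and 2 regions called in the control alone. With 25 kb on each side, 3 regions were called in the control alone, and with 100 kb, 17 were called in both DKO libraries alone. Leaving out a DKO library gave 17 to 30 regions called in the remaining DKO library and not in the control (30 with DKO2, the longer list) and 8 to 11 called in the control alone. The median control-DKO rank difference stayed between -18.3 points (with the minimum score) and -9.01 points (with lists of equal length) over all alternatives. No paired analysis was possible because only 1 control library was analysed, without a replicate number. Depth is unknown, which limits what a missing peak can show.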

Other observations

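Several of the 66 regions, 17 in all, lay at start sites of neighbouring genes. Eif4b, which encodes a translation factor and lies next to Krt18, had ranks of 62.4 (control), 77.1 (DKO1) and 92.0 (DKO2). Mettl27, next to Cldn4, had ranks of 11.4, 29.5 and 47.9. Tmem270, at the edge of the Cldn4 window, was called in the control (rank 17.0) and DKO2 (rank 47.9). Stx1a in the Cldn3 window, with Dvl2 and Acadvl in the Cldn7 window, was called in DKO2 alone, at ranks of 54.7, 57.7 and 19.8.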
